A study of Mus musculus with 12 samples.

Results

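The alcohol dehydrogenases, aldehyde dehydrogenases and aldo-keto reductases are the enzymes that pass hydrogen between alcohols, aldehydes and ketones and NAD or NADP. They were taken here as all array probes whose RefSeq accession belongs to a mouse gene named Adh, Aldh or Akr followed by a digit. The rule gave 38 genes of the 16535 genes named on the array, measured by 47 of its 41174 probes: 4 Adh, 19 Aldh and 15 Akr genes. A further 7 genes of the same name pattern had no matched probe: Adh6a, Adh6b, Adh6-ps1, Akr1c13, Akr1c20, Aldh3b2 and Aldh3b3.

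The samples were esophagus and liver RNA of 6 male mice on a mixed 129Sv/C57BL6 background, about 8 months old, with 1 array per organ and mouse. The 3 TG mice (Col1a1tetO-Nanog/+;Rosa26rtTA/+) carried a doxycycline-responsive Nanog transgene at Col1a1 and the rtTA activator at Rosa26, and the 3 CTR mice (Col1a1+/+;Rosa26rtTA/+) carried the activator alone. All 6 mice drank doxycycline at 0.2 mg/ml in a 7.5% sucrose solution for 48 h, so the controls share the drug, the sugar and rtTA. Nanog is a transcription factor of pluripotent cells. Its single probe was well above background on 0 of the 12 arrays, so that induction of the transgene could not be checked.

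Values are log2 signals of each array minus that array's 75th percentile, and a difference of 1 is a doubling. The share of probes well above background was 56.3% to 81.8% per array, arrays of 1 group correlated at 0.947 to 0.988, and the small number of arrays limits the precision. Both ends of that share were livers, CTR3 the lowest and TG3 the highest, and liver CTR3 also held the most outlier spots (246). Tissue markers matched the labels. All 12 tested genes of stratified epithelium rose and all 11 tested hepatocyte genes fell in CTR esophagus relative to CTR liver (limma, Benjamini-Hochberg adjusted over all genes tested). The summed signal of the hepatocyte list was 0.338 to 1.77 on the log2 scale on the 6 esophagus arrays, against 12 to 12.3 on the 6 liver arrays. Some arrays stood apart from their group. Esophagus CTR1 held the highest summed signals of heart (7.71) and airway (7.91) markers among the 6 esophagi. Liver TG2 and liver CTR1 held the lowest summed signals of clock genes (5.17 and 5.43) among the 6 livers. Of the same list, Arntl and Clock were highest in these livers. Both organs of a mouse carry its number in the labels.

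Alcohol dehydrogenases oxidise ethanol and retinol to aldehydes, and also oxidise formaldehyde adducts. Aldehyde dehydrogenases oxidise aldehydes to acids, including acetaldehyde to acetate and retinaldehyde to retinoic acid. Aldo-keto reductases mostly run the other way and reduce aldehydes, sugars and steroid ketones. The liver is the main site of ethanol, folate, steroid and bile acid metabolism, while surface epithelia such as the esophagus meet ethanol and reactive aldehydes from the lumen.

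The 250 bases before the transcription start are shown for 6 members with opposite organ patterns. Adh7, Akr1b8 and Akr1b10 were higher in the esophagus, and Adh4, Akr1c6 and Akr1c19 were higher in the liver. The sequences come from RefSeq on GRCm38.p6, lie on the plus strand and run 5′ to 3′, and capitals mark the matches to the motifs described after them.
Adh7, chr3:138217523-138217772: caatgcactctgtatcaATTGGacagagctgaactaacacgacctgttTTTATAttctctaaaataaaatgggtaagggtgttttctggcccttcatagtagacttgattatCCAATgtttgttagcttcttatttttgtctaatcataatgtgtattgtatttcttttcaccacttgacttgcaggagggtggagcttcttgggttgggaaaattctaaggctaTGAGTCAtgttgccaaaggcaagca
Akr1b8, chr6:34353896-34354145: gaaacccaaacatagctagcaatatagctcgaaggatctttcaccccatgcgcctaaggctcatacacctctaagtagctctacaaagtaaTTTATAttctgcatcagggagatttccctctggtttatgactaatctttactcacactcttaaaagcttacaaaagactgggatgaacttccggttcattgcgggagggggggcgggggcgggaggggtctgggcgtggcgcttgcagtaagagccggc
Akr1b10, chr6:34383997-34384246: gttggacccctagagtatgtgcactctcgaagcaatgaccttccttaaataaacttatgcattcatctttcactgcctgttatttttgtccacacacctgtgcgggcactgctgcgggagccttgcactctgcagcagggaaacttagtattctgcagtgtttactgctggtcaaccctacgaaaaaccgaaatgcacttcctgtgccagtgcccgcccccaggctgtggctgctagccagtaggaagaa
Adh4, chr3:138415247-138415496: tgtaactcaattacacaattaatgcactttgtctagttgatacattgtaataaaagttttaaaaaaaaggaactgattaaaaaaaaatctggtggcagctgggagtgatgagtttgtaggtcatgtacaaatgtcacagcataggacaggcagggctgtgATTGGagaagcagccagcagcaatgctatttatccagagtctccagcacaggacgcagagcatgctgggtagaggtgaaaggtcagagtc
Akr1c6, chr13:4434093-4434342: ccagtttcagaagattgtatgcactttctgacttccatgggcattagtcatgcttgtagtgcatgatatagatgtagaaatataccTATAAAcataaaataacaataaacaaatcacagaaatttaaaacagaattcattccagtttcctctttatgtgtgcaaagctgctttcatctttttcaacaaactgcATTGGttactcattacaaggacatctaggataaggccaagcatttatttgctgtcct
Akr1c19, chr13:4233490-4233739: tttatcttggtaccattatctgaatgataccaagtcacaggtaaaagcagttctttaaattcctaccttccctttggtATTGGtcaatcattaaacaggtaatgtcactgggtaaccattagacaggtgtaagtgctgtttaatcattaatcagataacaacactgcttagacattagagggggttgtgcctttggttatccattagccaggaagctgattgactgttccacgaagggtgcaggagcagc

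A promoter was given for 32 of the 38 members. Both strands were searched. The TATA box, read as TATAAA, stood in 5 of the 32 windows and in 12.4% of the 32851 promoters of the table. The CCAAT box stood in 17 of 32 members and in 33.8% of all. The core GTTAAT of the liver factor HNF1 stood in 2 members and in 6.43% of all promoters. The AP-1 site TGANTCA stood in 2 members and in 6.75% of all. The core TGACNNNGC of the antioxidant response element, which can overlap an AP-1 site, stood in 3 members and in 10.2% of all. Among the windows shown, Adh7 held the AP-1 letters 25 bases before its start, TATAAA on the minus strand and CCAAT on both strands. Akr1b10 held none of the 5 motifs, Akr1b8 held TATAAA on the minus strand alone, and Akr1c6 held TATAAA and, on the minus strand, CCAAT. Adh4 and Akr1c19 held CCAAT on the minus strand alone. A match describes letters and no binding.

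The main division among the members was between the organs. In TG mice 9 of 38 tested members were higher and 26 lower in the esophagus than in the liver, where 63.7% of all 23911 genes tested were called, 23.4% higher and 40.3% lower (limma, adjusted p under 0.05). With quantile normalization the members split 9 higher and 23 lower, and the share of higher calls among all called genes was 48.4% in place of 36.8%. In CTR mice 9 of 37 tested members were higher and 23 lower, where 62.7% of 23364 genes were called, 26.6% higher and 36.1% lower. The median difference, esophagus minus liver, was -2.58 in TG and -3.10 in CTR mice for the members on the log2 scale, and -0.41 and -0.20 for all genes. The same 32 members were called in both genotypes, 9 higher and 23 lower in each, and 0 in opposite directions. The share of all genes called alike in both genotypes was not counted. All 32 members kept their sign on each of the slides that held both organs of a genotype, and so did the 35 called in TG mice. The arrays of these slides also entered the calls, so the signs are no separate test. The share of all called genes that kept their sign was not counted. The organs were extracted by different means, a fibrous-tissue kit for the esophagus and Trizol before a column for the liver, and the effects of organ and of extraction cannot be told apart. In whole organs, fewer cells of a type and less RNA per cell cannot be told apart.

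**Figure D1:**
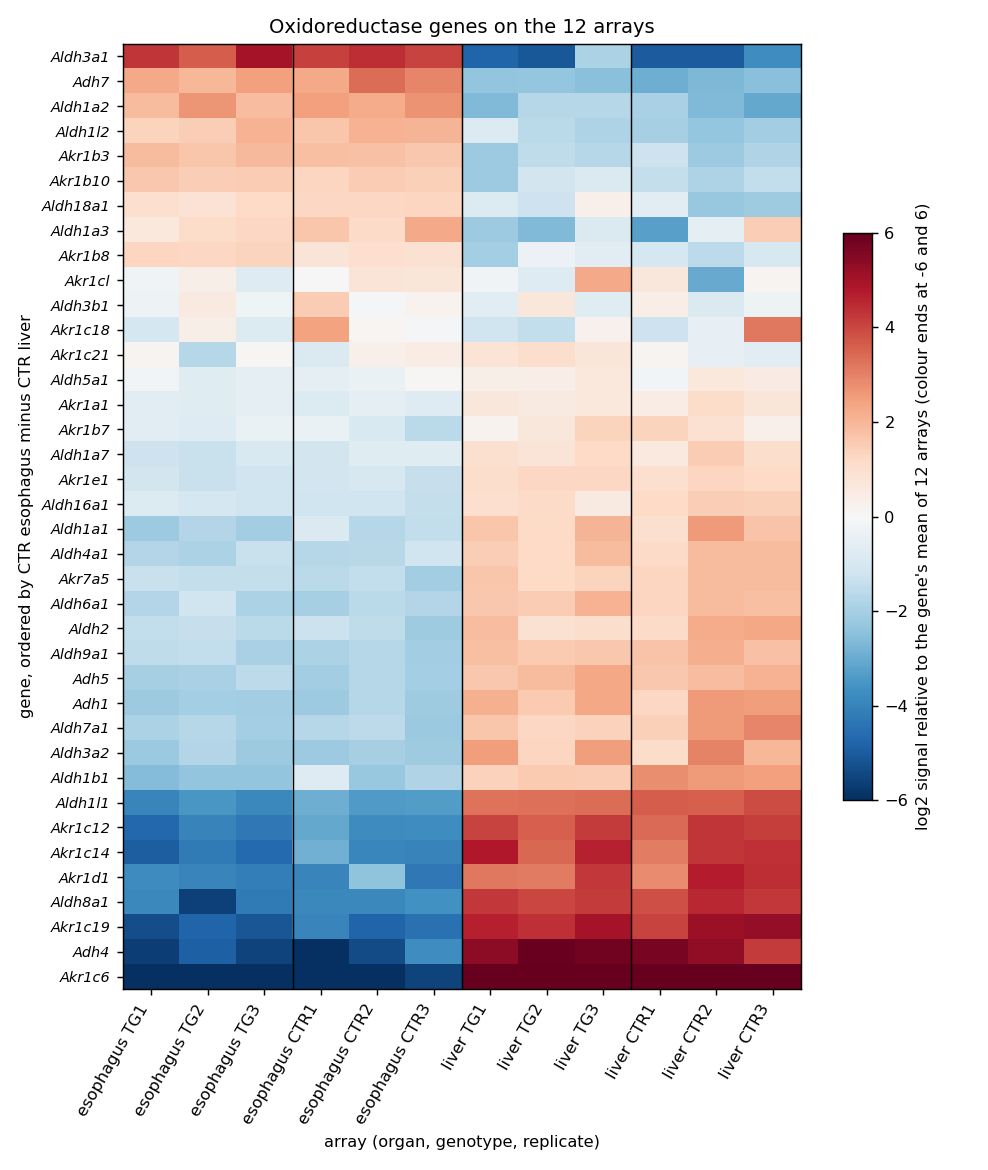
Colours give the log2 signal of each gene on each of the 12 arrays relative to that gene's own mean over the 12 arrays, with red above it and blue below it. Rows run from the genes highest in CTR esophagus relative to CTR liver at the top to the lowest at the bottom. The upper rows, led by Aldh3a1 and Adh7, are red on all 6 esophagus arrays, and the lower rows, ending with Adh4 and Akr1c6, are red on all 6 liver arrays.

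Of the 4 alcohol dehydrogenases measured, Adh7 was higher in the esophagus and Adh1, Adh4 and Adh5 were lower, in both genotypes. Adh7 (NM_009626) is the class IV enzyme of surface epithelia that oxidises retinol and ethanol. Adh7 stood at 2.38, 2.07 and 2.55 in TG and 2.35, 3.46 and 3.00 in CTR esophagus, against -2.28, -2.23 and -2.41 in TG and -2.82, -2.60 and -2.42 in CTR liver. Every esophagus array lay above every liver array, and the difference was 4.64 (SE 0.26) in TG mice and 5.55 (SE 0.26) in CTR mice, or 25-fold and 46.9-fold (limma adjusted p = 1.16e-07 and 2.76e-08). Adh1 (NM_007409) is the main ethanol-oxidising enzyme of the liver. Adh1 stood at 3.64, 3.78 and 3.72 in TG and 3.63, 4.09 and 3.70 in CTR esophagus, against 7.97, 7.38 and 8.15 in TG and 7.05, 8.39 and 8.32 in CTR liver. It remained well above background on all 12 arrays, with esophagus signals 17.4-fold lower in TG mice and 17.3-fold lower in CTR mice, and its second probe gave -4.85 in each genotype. Adh4 (NM_011996) is a class II enzyme known for retinol oxidation in the liver. Adh4 stood at -5.54, -4.81 and -5.46 in TG and -7.08, -5.27 and -3.65 in CTR esophagus, against 5.46, 6.01 and 5.89 in TG and 5.78, 5.41 and 4.30 in CTR liver. Its esophagus signals were well above background on 2 of 3 arrays in TG and 2 of 3 in CTR mice. The differences were -11.05 (SE 0.71) in TG and -10.50 (SE 0.71) in CTR mice (limma adjusted p = 3.09e-07 and 4.54e-07). Over the alternative settings with all 12 arrays they ran from -11.15 to -8.24 in TG and from -10.53 to -7.79 in CTR mice. Adh5 (NM_007410) is the class III formaldehyde-clearing enzyme that most cells carry. Adh5 stood at 3.57, 3.60 and 3.97 in TG and 3.46, 3.84 and 3.52 in CTR esophagus, against 7.18, 7.44 and 7.87 in TG and 7.16, 7.42 and 7.65 in CTR liver. It was 13.7-fold lower in TG and 13.9-fold lower in CTR esophagus than in the liver, with no overlap.

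Of the 5 retinaldehyde dehydrogenases, 2 were higher and 3 lower in the esophagus in each genotype. Aldh1a2 (NM_009022) is known for retinoic acid synthesis in connective tissue cells and embryos. Aldh1a2 stood at 0.71, 1.44 and 0.67 in TG and 1.26, 1.03 and 1.52 in CTR esophagus, against -3.85, -2.89 and -2.89 in TG and -3.13, -3.86 and -4.27 in CTR liver. The groups did not overlap, and the difference was 4.15 (SE 0.36) in TG and 5.03 (SE 0.36) in CTR mice (limma adjusted p = 3.12e-06 and 6.98e-07). Aldh1a3 (NM_053080) is the related epithelial enzyme. Aldh1a3 stood at -1.71, -1.24 and -1.07 in TG and -0.68, -1.20 and -0.07 in CTR esophagus, against -4.52, -4.96 and -3.18 in TG and -5.60, -2.93 and -0.86 in CTR liver. Its liver signals spread widely, with liver CTR3 inside the CTR esophagus range, and the differences were 2.88 (SE 0.95) in TG and 2.48 (SE 0.95) in CTR mice (limma adjusted p = 0.0218 and 0.0424). Leaving out 1 of the 12 arrays ended the TG call in 4 of 12 cases and the CTR call in 9 of 12, and without liver CTR1 the CTR difference was 1.24. Aldh1a1 (NM_013467) is the cytosolic enzyme for retinaldehyde abundant in liver. Aldh1a1 stood at 4.13, 4.51 and 4.22 in TG and 5.40, 4.56 and 4.82 in CTR esophagus, against 7.96, 7.47 and 8.34 in TG and 7.23, 8.84 and 8.00 in CTR liver. Its neighbour and near copy Aldh1a7 (NM_011921) stood at 3.86, 3.74 and 4.20 in TG and 4.0, 4.38 and 4.35 in CTR esophagus, against 6.06, 5.87 and 6.27 in TG and 5.66, 6.60 and 6.15 in CTR liver. Both were lower in the esophagus, Aldh1a1 by 12.4-fold in TG and 8.57-fold in CTR mice and Aldh1a7 by 4.39-fold and 3.72-fold. How far the probes separate the pair was not tested. With quantile normalization the Aldh1a7 differences were -1.36 in TG and -1.08 in CTR mice. Aldh8a1 (NM_178713) is an enzyme of tryptophan breakdown that also oxidises cis-retinaldehyde. Aldh8a1 stood at -2.74, -4.46 and -3.11 in TG and -2.74, -2.71 and -2.50 in CTR esophagus, against 5.39, 5.16 and 5.35 in TG and 5.02, 5.65 and 5.39 in CTR liver. The organs were separated by -8.73 (SE 0.37) in TG and -8.00 (SE 0.37) in CTR mice (limma adjusted p = 1.31e-08 and 2.49e-08).

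The dehydrogenases of acetaldehyde and of fatty and aromatic aldehydes divided as well. Aldh2 (NM_009656) is the mitochondrial enzyme that clears acetaldehyde after ethanol. Aldh2 stood at 3.31, 3.39 and 3.17 in TG and 3.52, 3.28 and 2.64 in CTR esophagus, against 6.63, 5.73 and 5.83 in TG and 5.93, 7.0 and 7.12 in CTR liver. It was 6.84-fold lower in TG and 11.6-fold lower in CTR esophagus (limma adjusted p = 6.49e-05 and 1.05e-05), and well above background on all 12 arrays. Its mitochondrial relative Aldh1b1 (NM_028270) differed by -3.93 (SE 0.32) in TG and -4.22 (SE 0.32) in CTR mice. Aldh3a1 (NM_007436) is known from cornea and stomach epithelium for oxidising aromatic and lipid-derived aldehydes. Aldh3a1 stood at 2.13, 1.51 and 2.84 in TG and 1.98, 2.29 and 1.90 in CTR esophagus, against -6.95, -7.21 and -4.02 in TG and -7.13, -7.15 and -5.85 in CTR liver. In TG liver 1 of 3 arrays, TG3, was well above background, and the TG difference was 8.22 (SE 0.74) (limma adjusted p = 4.36e-06). In CTR liver 0 of 3 arrays were, so the CTR difference is a bound of at least 135-fold higher in the esophagus (measured difference 8.77, limma adjusted p = 2.65e-06). In the authors' table the CTR difference was 5.49. The next gene on the chromosome, Aldh3a2 (NM_007437), the microsomal enzyme for long-chain fatty aldehydes, was lower in the esophagus by 17.9-fold in TG and 17.4-fold in CTR mice. Aldh3b1, an enzyme for lipid-derived aldehydes, was called in neither genotype, with differences of 0.22 (95% interval -0.94 to 1.38) in TG and 0.77 (95% interval -0.39 to 1.94) in CTR mice.

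The 2 folate enzymes took opposite sides by the brightest probe of each, but the 2 probes of Aldh1l2 disagreed. Aldh1l1 (NM_027406) is the cytosolic formyltetrahydrofolate dehydrogenase. Aldh1l1 stood at -0.75, -0.27 and -0.64 in TG and 0.28, -0.21 and -0.17 in CTR esophagus, against 6.44, 6.49 and 6.55 in TG and 6.84, 6.78 and 7.11 in CTR liver. The difference was -7.05 (SE 0.19) in TG and -6.94 (SE 0.19) in CTR mice, with the lowest adjusted p of all members in each genotype (limma adjusted p = 4.69e-10 and 5.31e-10). Aldh1l2 (NM_153543) is the mitochondrial counterpart. Aldh1l2 stood at -1.56, -1.39 and -0.80 in TG and -1.22, -0.80 and -0.82 in CTR esophagus, against -3.70, -4.49 and -4.75 in TG and -4.87, -5.19 and -4.98 in CTR liver. This first probe, the brighter in the esophagus, gave 3.06 (SE 0.29) in TG and 4.07 (SE 0.29) in CTR mice. The second probe gave -0.68 and -0.19 (limma adjusted p = 0.24 and 0.756), so the 2 probes of this gene disagree. In liver the second probe was the brighter, with means of -3.36 in TG and -3.73 in CTR mice, against -4.31 and -5.01. It was well above background on 3 TG and 2 CTR livers, and the first probe on 1 TG and 1 CTR liver. The differences of the first probe thus rest on liver signals mostly not well above background. In the authors' table the first probe gave 1.92 in TG and 2.28 in CTR mice. Of the 6 enzymes of amino acid, GABA, carnitine and proline metabolism, Aldh18a1 (NM_019698), which starts proline synthesis from glutamate, was called higher in the esophagus. Aldh18a1 stood at -2.10, -2.23 and -1.93 in TG and -1.89, -1.87 and -1.85 in CTR esophagus, against -3.96, -4.35 and -2.83 in TG and -3.76, -5.41 and -5.25 in CTR liver. The organs did not overlap, and they differed by 1.63 (SE 0.45) in TG and 2.94 (SE 0.45) in CTR mice; in CTR liver 1 of 3 arrays was well above background, and in the authors' table the CTR difference was 1.37. Aldh4a1, which degrades proline, Aldh6a1, which degrades valine and thymine, Aldh7a1, which degrades lysine, and Aldh9a1, of carnitine synthesis, were each called lower, with differences between -3.36 and -3.21 in TG mice and between -4.12 and -3.15 in CTR mice. The second Aldh4a1 probe gave smaller differences, -1.46 in TG and -1.28 in CTR mice. The second probes of Aldh7a1 and Aldh9a1 gave -3.59 and -3.30 in TG and -4.17 and -4.01 in CTR mice. Aldh5a1, which clears the GABA product succinic semialdehyde, differed by -0.95 (SE 0.25) in TG mice (limma adjusted p = 0.00753) and by -0.61 (SE 0.25) in CTR mice (limma adjusted p = 0.0566), and the TG call was lost with quantile normalization. Aldh16a1, whose substrate is not settled, was 3.81-fold lower in TG and 6.2-fold lower in CTR esophagus.

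**Figure D2:**
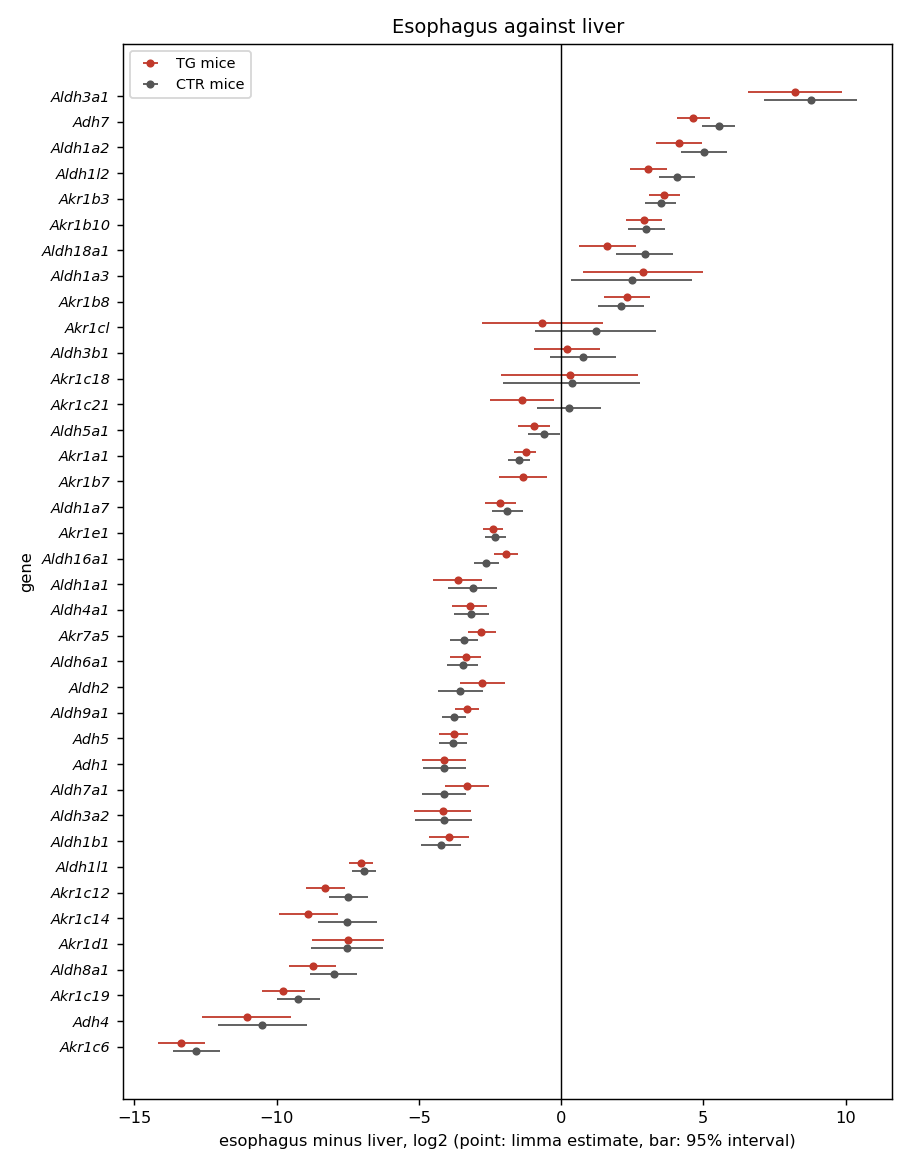
Points are the limma estimates of the log2 difference, esophagus minus liver, and bars their 95% intervals, unadjusted for the number of genes, in TG mice (red) and CTR mice (grey), for the 38 members in the order of the CTR difference. The 2 genotypes give estimates of like sign for all members but Akr1c21 and Akr1cl, whose intervals in CTR mice include 0, and Akr1b7 was not tested in CTR mice.

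Among the aldehyde and aldose reductases, 3 of 7 members were higher in the esophagus in each genotype, and all 3 belong to the Akr1b cluster. Akr1b3 (NM_009658) is aldose reductase, which turns glucose into sorbitol. Akr1b3 stood at 4.54, 4.33 and 4.60 in TG and 4.48, 4.40 and 4.30 in CTR esophagus, against 0.48, 1.13 and 0.96 in TG and 1.40, 0.46 and 0.84 in CTR liver. It was 12.4-fold higher in TG and 11.3-fold higher in CTR esophagus than in the liver (limma adjusted p = 5e-07 and 6.51e-07). Akr1b10 (NM_172398) is an aldose reductase-like enzyme. Akr1b10 stood at 2.23, 2.09 and 2.12 in TG and 1.91, 2.14 and 2.05 in CTR esophagus, against -1.55, -0.50 and -0.26 in TG and -0.81, -1.22 and -0.87 in CTR liver. Akr1b8 (NM_008012) is another such enzyme that is induced in growing cells. Akr1b8 stood at 3.68, 3.63 and 3.73 in TG and 3.17, 3.41 and 3.31 in CTR esophagus, against 0.36, 2.02 and 1.74 in TG and 1.31, 0.83 and 1.42 in CTR liver. Each separated the organs without overlap, Akr1b10 by 2.92 (SE 0.29) in TG and 3.00 (SE 0.29) in CTR mice and Akr1b8 by 2.31 (SE 0.36) and 2.11 (SE 0.36). Akr1b7 (NM_009731) is known from adrenal gland and vas deferens. Akr1b7 stood at -4.85, -4.94 and -4.56 in TG and -4.59, -5.08 and -5.81 in CTR esophagus, against -3.95, -3.51 and -2.85 in TG and -2.83, -3.25 and -3.88 in CTR liver. Its signals were dim, it was not tested in CTR mice, and its TG difference of -1.34 (SE 0.38) (limma adjusted p = 0.00998) was not called with quantile normalization (-0.75, limma adjusted p = 0.057). Akr1a1, the aldehyde reductase of ascorbate synthesis, Akr1e1, an anhydrofructose reductase, and Akr7a5, a reductase of aflatoxin and succinic semialdehyde, were each called lower in the esophagus, with differences between -2.80 and -1.25 in TG mice and between -3.40 and -1.48 in CTR mice.

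Of the 8 aldo-keto reductases of steroids and bile acids, 0 were called higher in the esophagus, and 6 in TG and 5 in CTR mice were called lower. Akr1c6 (NM_030611) is a hydroxysteroid dehydrogenase of androgens and estrogens abundant in liver. Akr1c6 stood at -4.31, -4.33 and -4.66 in TG and -5.04, -3.97 and -3.29 in CTR esophagus, against 8.81, 8.76 and 9.17 in TG and 8.36, 8.95 and 8.85 in CTR liver. This was the largest measured organ difference of any member, -13.35 (SE 0.37) in TG and -12.83 (SE 0.37) in CTR mice (limma adjusted p = 5.69e-10 and 8.28e-10). Akr1c19 (NM_001013785) stood at -2.97, -2.48 and -2.81 in TG and -1.64, -2.45 and -2.14 in CTR esophagus, against 7.02, 6.72 and 7.31 in TG and 6.39, 7.46 and 7.63 in CTR liver. Akr1c14 (NM_134072) is an enzyme that reduces dihydrotestosterone and related steroids. Akr1c14 stood at -4.24, -3.55 and -3.97 in TG and -2.19, -3.24 and -3.31 in CTR esophagus, against 5.47, 4.13 and 5.30 in TG and 3.75, 4.98 and 5.07 in CTR liver. Akr1c12 (NM_013777) stood at -2.83, -2.12 and -2.37 in TG and -1.18, -1.88 and -1.84 in CTR esophagus, against 5.94, 5.48 and 6.10 in TG and 5.28, 6.20 and 6.05 in CTR liver. All 3 were well above background on all 12 arrays, and their organ differences were -9.77, -8.89 and -8.29 in TG mice and -9.24, -7.51 and -7.48 in CTR mice. Akr1d1 (NM_145364) is the reductase that gives bile acids their bent ring system. Akr1d1 stood at -8.10, -8.30 and -8.46 in TG and -8.27, -6.75 and -8.59 in CTR esophagus, against -1.15, -1.19 and -0.06 in TG and -1.48, 0.39 and 0.09 in CTR liver. It was well above background on all 6 liver arrays and 0 esophagus arrays, so that the liver signal is at least 38.5-fold higher in TG and at least 57-fold higher in CTR mice. In the authors' table its differences were -3.08 in TG and -3.50 in CTR mice. Akr1c18, which inactivates progesterone, and Akr1cl were called in neither genotype. Akr1c21, a hydroxysteroid dehydrogenase of androgens, differed by -1.38 (SE 0.50) in TG mice (limma adjusted p = 0.0336) and 0.27 (SE 0.51) in CTR mice (limma adjusted p = 0.667), and the TG call was lost with quantile normalization. Near-identical copies in this cluster could share signal, which was not tested.

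Members that lie side by side on a chromosome did not all favour the same organ. In the Adh row on chromosome 3, Adh7 is followed by Adh1, the unmeasured Adh6 genes, Adh4 and Adh5 with 0 other protein-coding genes between, and the CTR differences along it were 5.55, -4.11, -10.50 and -3.80. Of the adjacent Aldh3a1 and Aldh3a2 on chromosome 11, Aldh3a1 was at least 135-fold higher in CTR esophagus and Aldh3a2 differed by -4.12. The Akr1b row on chromosome 6 gave 3.5, 2.11 and 3.00 for its first 3 genes. The last gene of that row, the dim Akr1b7, was not tested in CTR mice. It differed by -1.34 in TG mice, a call lost with quantile normalization. On chromosome 13, Akr1c14, Akr1c19, Akr1c12 and Akr1c6 were called lower in the esophagus in both genotypes. In the same row, Akr1c18 was called in neither genotype, with differences of 0.30 in TG and 0.37 in CTR mice, and Akr1c21 was called lower in TG mice (-1.38) and not called in CTR mice (0.27).

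The other genes of the same pathways were described by 4 lists. Of the retinoid genes, 7 of 24 tested rose and 15 fell in TG esophagus relative to TG liver, and 4 of 24 rose and 15 fell in CTR mice. The transport protein gene Ttr was well above background on 0 esophagus arrays, and its liver signal was at least 2210-fold higher in TG and at least 2340-fold higher in CTR mice. The retinol dehydrogenase Rdh7, above background on 0 of 3 TG esophagi, was at least 10900-fold higher in TG liver than in TG esophagus and differed by -12.47 in CTR mice. Rdh5, measured on all 12 arrays, differed by -3.82 in TG and -3.75 in CTR mice. Of the genes of ethanol, acetate and polyol handling, 1 of 11 rose and 10 fell in TG mice and 1 of 10 rose and 9 fell in CTR mice. Catalase (Cat) differed by -4.54 and -4.60 and the fructose kinase gene Khk by -6.61 and -6.84 in TG and CTR mice, while Acss1, a mitochondrial acetyl-CoA synthetase, differed by 5.32 and 5.81. Of 17 tested steroid and bile acid genes, 0 rose and 16 fell in each genotype. Baat, which conjugates bile acids, was well above background on 0 esophagus arrays, and its liver signal was at least 2740-fold higher in TG and at least 2730-fold higher in CTR mice. The Nrf2 list held genes of the antioxidant response and also the regulators Nfe2l2, which encodes Nrf2, and Keap1. This list was split, with 7 of 19 higher and 11 lower in TG mice and 7 of 19 higher and 10 lower in CTR mice. Carbonyl reductase Cbr3 differed by 5.97 in TG and 5.96 in CTR mice and G6pdx, which supplies NADPH, by 4.20 and 4.46, while the glutathione transferase Gsta3 differed by -7.15 and -6.07. The medians were -2.28, -4.24, -6.13 and -0.63 in TG mice in the order of these lists and -2.02, -4.52, -5.98 and -0.51 in CTR mice, against -0.41 and -0.20 for all genes.

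Between TG and CTR esophagus, 0 of 36 tested members passed, as did 0% of all 23205 genes (limma, adjusted p under 0.05). At an unadjusted p under 0.05 stood 4 members, against 4.01% of all genes. The median TG minus CTR difference was -0.21 over the members, of which 13 had a higher and 23 a lower mean in TG, and 0.01 over all genes. Aldh1l1, with the smallest p, stood at -0.75, -0.27 and -0.64 in TG and 0.28, -0.21 and -0.17 in CTR esophagus, a difference of -0.52 (SE 0.19) (limma adjusted p = 0.999). Akr1c12 stood at -2.83, -2.12 and -2.37 in TG and -1.18, -1.88 and -1.84 in CTR esophagus, a difference of -0.81 (SE 0.31). Aldh1b1 stood at -2.18, -1.91 and -1.94 in TG and -0.34, -1.85 and -1.38 in CTR esophagus, a difference of -0.82 (SE 0.32). In these 3 genes all 3 TG values lay below all 3 CTR values, with esophagus CTR1 the highest of the 6 arrays. Without esophagus CTR1 the Aldh1b1 difference was -0.39. On the slide that held esophagus TG1 and esophagus CTR2 the difference was -0.33 for Aldh1b1 and -0.53 for Aldh1l1. Adh7 stood at 2.38, 2.07 and 2.55 in TG and 2.35, 3.46 and 3.00 in CTR esophagus, with TG and CTR values that overlap and a difference of -0.60 (SE 0.26), which was -0.90 without esophagus CTR1 and -0.35 without esophagus CTR2. The 4 smallest p among members with a higher TG mean belonged to Akr7a5, Aldh9a1, Aldh16a1 and Akr1b8, with differences of 0.32 (SE 0.22), 0.25 (SE 0.20), 0.23 (SE 0.19) and 0.38 (SE 0.36) (limma adjusted p of each = 0.999). With normexp background correction the Aldh16a1 difference was -0.01, and without esophagus CTR3 the Akr7a5 difference was 0.14. Akr1b8 stood at 3.68, 3.63 and 3.73 in TG and 3.17, 3.41 and 3.31 in CTR esophagus. Akr7a5 stood at 1.30, 1.21 and 1.22 in TG and 1.03, 1.17 and 0.56 in CTR esophagus. Neither gene overlapped between the genotypes, and TG was the higher.

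By role, all 7 tested steroid reductases and all 5 retinaldehyde dehydrogenases had a lower mean in TG esophagus, with medians of -0.70 and -0.64, and 0 of them passed. The roles were chosen with earlier results of these data known. The share of all genes with a lower TG mean was not counted. Without overlap, 2 members were higher (Akr1b8, Akr7a5) and 7 lower in TG (Akr1c12, Akr1c14, Akr1c19, Aldh18a1, Aldh1a1, Aldh1b1, Aldh1l1), against 6.96% and 5.64% of all genes tested. Of the marker lists of other cell types and of clock genes 0 genes passed, and those with the largest shifts are given here beside the members. All 9 tested hepatocyte markers had a lower mean in TG esophagus, with a median of -0.87. The summed signal of that list was 0.34, 1.56 and 0.51 in TG and 1.56, 1.77 and 1.37 in CTR esophagus. Cyp2e1, among the brightest of the list there, stood at -1.13, 1.12 and -1.01 in TG and 0.83, 0.72 and -0.71 in CTR, with overlap. Albumin (Alb) stood at -4.67, -5.63 and -4.90 in TG and -3.35, -1.31 and -1.42 in CTR esophagus. It was well above background on 2 of 3 TG and 3 of 3 CTR arrays. F2 stood at -4.48, -4.41 and -4.72 in TG and -3.58, -3.10 and -3.18 in CTR. Alb and F2 did not overlap between the genotypes. The fat list summed to 5.85, 7.57 and 5.82 in TG and 7.84, 7.44 and 6.82 in CTR esophagus, and 8 of its 9 genes had a lower TG mean. The airway list summed to 0.38, 6.68 and 1.11 in TG and 7.91, 4.77 and 5.53 in CTR esophagus, with 5 of 6 tested genes lower. The heart list summed to 5.14, 5.42 and 5.30 in TG and 7.71, 5.57 and 6.30 in CTR, with 6 of 7 lower. Of 7 leukocyte markers 6 had a lower TG mean, Cd79a was at 0.00, and the median was -0.37. The clock gene list summed to 5.29, 5.38 and 6.28 in TG and 6.42, 6.12 and 6.47 in CTR esophagus, with 10 of 14 genes lower and 4 higher. Dbp, the brightest of the list, stood at 4.52, 4.58 and 5.76 in TG and 5.95, 5.54 and 5.94 in CTR esophagus. Arntl, of the 4 higher genes, stood at 0.61, 0.36 and -1.31 in TG and -1.34, -1.50 and -1.70 in CTR esophagus. For both genes esophagus TG3 lay nearer the CTR values than TG1 and TG2 did. The part of these cell types and of the clock genes in the differences of the members was not tested. The stratified epithelium list, which summed to 10.3, 9.96 and 10.2 in TG and 9.94, 10.3 and 10.3 in CTR esophagus, had 6 of 12 genes higher and 6 lower.

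**Figure D3:**
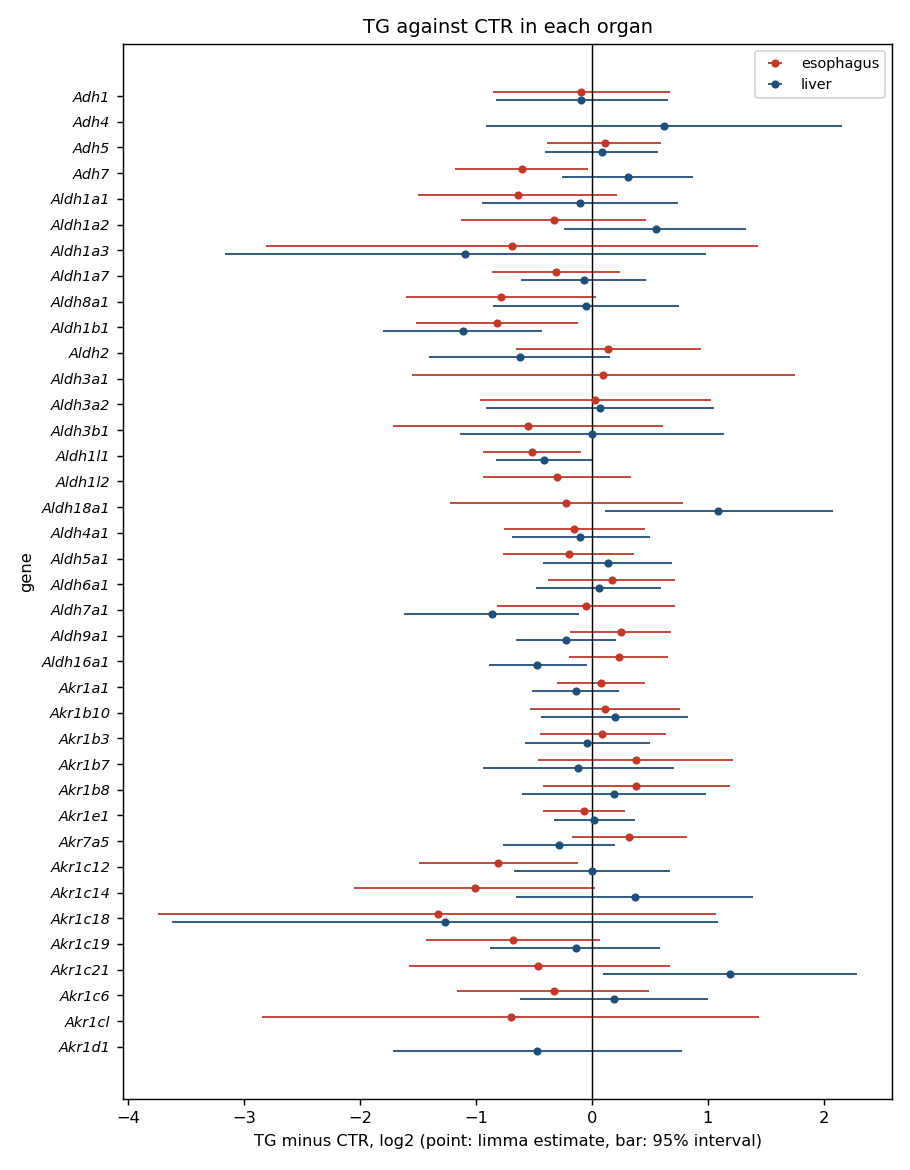
Points are the limma estimates of the log2 difference, TG minus CTR, and bars their 95% intervals, unadjusted for the number of genes, in esophagus (red) and liver (blue), with the members grouped by role from alcohol dehydrogenases at the top to steroid reductases at the bottom. Members that were not tested in an organ have no point there, most intervals include 0, and the estimates of Aldh1b1 and Aldh1l1 lie below 0 in both organs, the interval of Aldh1l1 in liver reaching 0.01. No member passed in either organ after adjustment.

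Between TG and CTR liver, 0 of 35 tested members and 0% of 21247 genes passed, while 5 members and 8.29% of all genes had an unadjusted p under 0.05. The median difference was -0.05 over the members and 0.13 over all genes, a shift of all genes that was 0.02 with quantile normalization. The members' median had no settled sign: it was -0.28 without liver CTR1, 0.02 without liver TG2, 0.07 without liver CTR2 and 0.04 without liver CTR3. Aldh1b1, with the smallest p, stood at 1.80, 2.02 and 1.94 in TG and 3.22, 2.98 and 2.90 in CTR liver. All 3 TG livers lay below all 3 CTR livers, and the difference was -1.11 (SE 0.31) (limma adjusted p = 0.58). On the slide that held liver TG3 and liver CTR2 the same difference was -1.05, and over the alternative settings it ran between -1.18 and -0.88. Aldh1l1 stood at 6.44, 6.49 and 6.55 in TG and 6.84, 6.78 and 7.11 in CTR liver, again without overlap, a difference of -0.41 (SE 0.19) (adjusted p = 0.599, limma). Aldh16a1 stood at 1.59, 1.72 and 1.1 in TG and 1.76, 2.05 and 2.01 in CTR liver, a difference of -0.47 (SE 0.19). Aldh7a1 stood at 0.59, 0.15 and 0.33 in TG and 0.34, 1.47 and 1.85 in CTR liver, with overlap; its difference was -0.86 (SE 0.34) by the brighter and -0.07 by the second probe. Without liver CTR3 the brighter probe gave -0.55, and without liver TG3 the Aldh16a1 difference was -0.28.

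Among members with a higher mean in TG liver, the smallest p belonged to Aldh18a1, Akr1c21, Aldh1a2 and Adh7. Akr1c21 stood at -2.52, -2.32 and -2.62 in TG and -3.18, -3.87 and -3.99 in CTR liver, without overlap, a difference of 1.19 (SE 0.50) (limma adjusted p = 0.594). Aldh18a1 stood at -3.96, -4.35 and -2.83 in TG and -3.76, -5.41 and -5.25 in CTR liver, a difference of 1.09 (SE 0.45). Akr1c21 was well above background on 2 of the 3 CTR livers and Aldh18a1 on 1 of 3. Liver CTR3 had the lowest share of probes well above background, 56.3%, and liver TG3 the highest, 81.8%. The part of this imbalance in the differences of dim members was not tested. In the authors' table the differences were 0.44 for Akr1c21 and 0.15 for Aldh18a1, and without liver TG3 that of Aldh18a1 was 0.65. Aldh1a2 differed by 0.55 (SE 0.35), and by 0.08 with quantile normalization. Adh7 differed by 0.31 (SE 0.26), and by -0.12 with normexp correction. The means of all 7 fibroblast markers were higher in TG than in CTR liver (median 0.40, 0 passing), and their summed signal was 5.40, 5.81 and 5.91 in TG and 5.03, 5.63 and 5.29 in CTR liver. Of 7 endothelial markers 6 had a lower TG mean, with a median of -0.32 and 0 passing. Their part in the liver differences was not tested. Without overlap, 2 tested members were higher in TG liver (Adh7, Akr1c21) and 3 lower (Aldh16a1, Aldh1b1, Aldh1l1), against 8.53% and 2.82% of all genes. For 4 main liver enzymes the interval of the difference included 0. The difference was -0.09 for Adh1 (95% interval -0.83 to 0.66), -0.10 for Aldh1a1 (-0.95 to 0.74), -0.62 for Aldh2 (-1.40 to 0.16) and 0.19 for Akr1c6 (-0.62 to 1.00). Of the 4 pathway lists, 0 genes passed in either organ. In TG liver the retinoic acid hydroxylase Cyp26b1 differed by -2.36 (SE 0.77) and the sterol hydroxylase Cyp27a1 by -0.84 (SE 0.27), each with a limma adjusted p of 0.58.

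**Figure D4:**
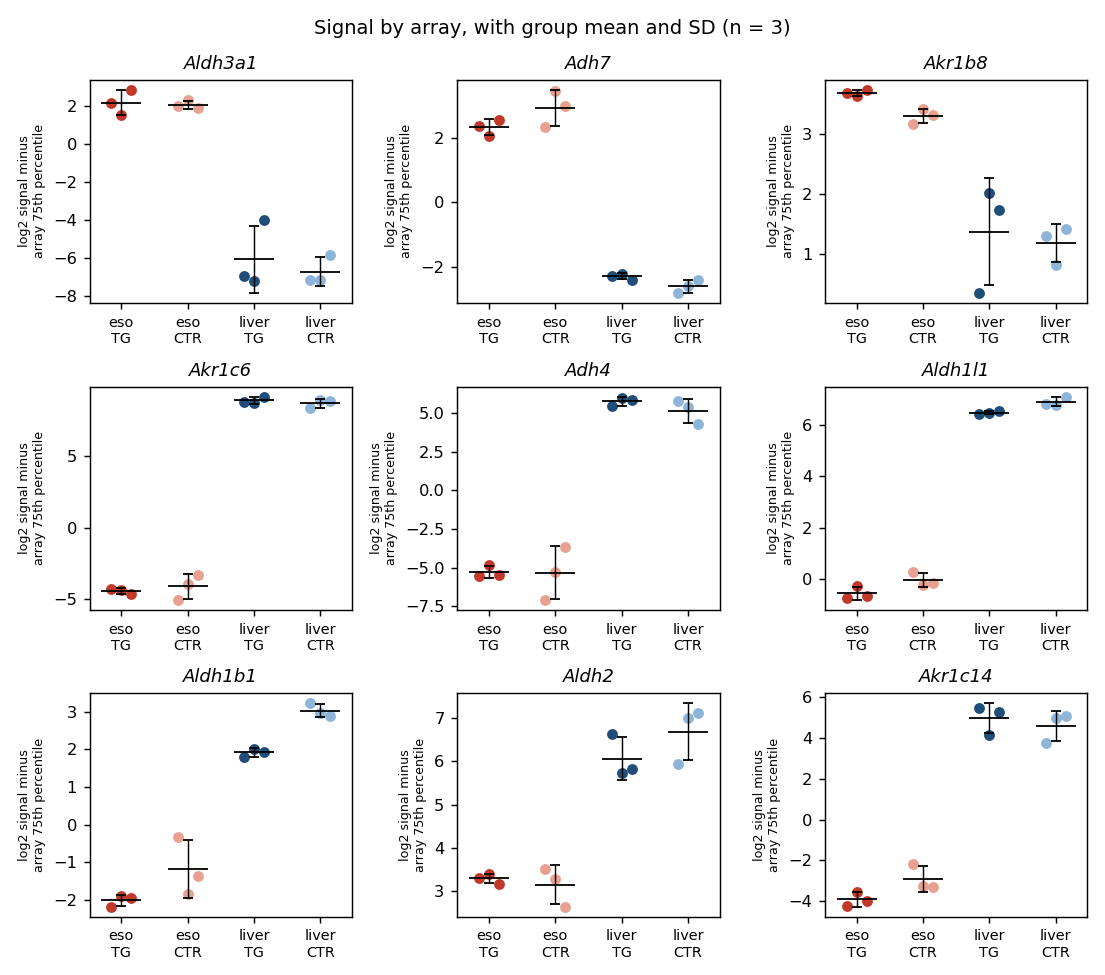
Points are the log2 signals of 9 members on the 12 arrays, each minus its array's 75th percentile, in TG and CTR esophagus (eso, red) and TG and CTR liver (blue), with the group mean and SD (n = 3) in black and a separate scale for each gene. Aldh1b1 and Aldh1l1 lie lower in TG than in CTR in both organs without overlap, while Aldh3a1, Adh7 and Akr1b8 lie higher in esophagus and Akr1c6, Adh4 and Akr1c14 higher in liver. Neither Aldh1b1 nor Aldh1l1 passed between TG and CTR in either organ, and both organs come from the same mice. The share of all genes without overlap in both organs was not counted.

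Whether the TG effect differs between the organs was tested by the esophagus effect minus the liver effect. Of 38 members, 0 passed, as did 0% of 24436 genes, and 4 members and 4.84% of all genes had an unadjusted p under 0.05. Aldh1b1 and Aldh1l1, lower in TG in both organs of the same mice but passing in neither, had differences of the effects of 0.29 (95% interval -0.70 to 1.29) and -0.11 (-0.71 to 0.50). The smallest p on the positive side belonged to Aldh16a1 at 0.70 (SE 0.28), Akr7a5 at 0.61 (SE 0.32), Aldh9a1 at 0.47 (SE 0.28) and Aldh7a1 at 0.81 (SE 0.49). On the negative side they belonged to Adh7 at -0.91 (SE 0.37), Aldh1l2 at -1.0 (SE 0.41), Akr1c21 at -1.65 (SE 0.72) and Akr1c14 at -1.38 (SE 0.67). With quantile normalization Aldh1l2 was at -0.07, and in the authors' table Akr1c21 was at -0.56 and Akr1c14 at -0.86. The limma adjusted p of each of these 8 was 0.957, and the median over the members was -0.09, against -0.14 over all genes. Without liver TG3 the members' median was 0.15.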

How the data were processed

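Total RNA (1 µg) was labelled with Cy3 and hybridised to 12 single-colour Agilent mouse arrays (RNA integrity numbers 7.3 to 9.5). Per the file headers, the deposited spot intensity values come from Agilent Feature Extraction 10.7.1.1 (design 14868), background-subtracted and not scaled between arrays. The authors also deposited log2 values, quantile-normalized with each column median at 7.27. Per the submitters' processing notes the tool was limma, with no version given. Control spots and 1311 outlier spots were left out, and 0 spots were saturated. Probes were named through RefSeq accessions (GRCm38.p6; 23374 named, 17800 kept under their identifiers); the array's own annotation was on mm8, so only promoter windows taken from RefSeq carry coordinates.

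Signals were log2 of the processed signal minus each array's 75th percentile. The brightest probe stood for a gene. A gene entered a test if each of the 3 arrays of 1 of the groups compared measured it well above background. For a gene not well above background on all arrays of a group, the bound sets the bright group's mean against that of the higher of the gene's own signal and the lowest signal well above background on each array. All 12 arrays entered 1 linear model (limma 3.58.1 with lmFit and eBayes, R 4.3.3, data.table version 1.17.8, jsonlite 2.0.0) in 4 groups without a block, with 8 residual degrees of freedom, two-sided tests and Benjamini-Hochberg adjustment at 0.05 over all genes tested. Figures and motif searches used Python 3.11.15, pandas 2.3.3 and matplotlib 3.10.9. In simulated data for the TG contrasts, of 50 genes altered by 1 on the log2 scale 28% were called among 23144 esophagus genes and 34% among 21197 liver genes, and of 50 altered by 2, 58% and 80%. The same data held 50 genes altered by 3 and 50 by 4, with the spread drawn for each gene on its own. In all, 134 esophagus and 157 liver genes were called there, against 0 in the real TG contrasts. More calls relax the Benjamini-Hochberg cut-off, so these shares may be too high for the real data.

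The members, roles and lists were chosen with earlier results of these data known. Named were, in each TG contrast and their difference, members that passed or the 4 smallest p per direction; in the CTR organ contrast, the 8 largest differences per direction; 12 members of known role; members whose probes disagree; and up to 4 genes per list. The labels give both organs of a mouse 1 number; deviations of the same mouse's organs from their group means correlated at -0.04 to 0.19 over 17219 genes. Alternatives covered scaling, background, dim-probe filter, floor, probe choice, slide, animal and replicate blocks, array weights, a fit of only the groups compared, and each array left out. Normexp used the median spot signal, with an offset of 50.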

Additional observations from a re-analysis of the deposited data

How the results depend on the processing

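The count of members called was 0 in both TG comparisons and in their difference under every alternative that gave a value, single arrays left out included. Between the organs, 31 to 35 members were called in TG mice over the alternatives, and 33 to 35 with single arrays left out. In CTR mice 26 to 33 were called, 26 when only genes well above background on all 6 arrays were tested, and 31 to 33 with single arrays left out. Over all genes, the TG effect in esophagus had 1 call with quantile normalization over 12 arrays or within each organ, with slide as a fixed block, with only the groups of the contrast and with array weights, and 2 with normexp, in the authors' table and with a common floor. The difference of effects had 1 call with either quantile normalization, normexp, the authors' table and the common floor. With single arrays left out, all genes called numbered 0 to 7 in esophagus (7 without esophagus TG2), 0 to 18 in liver (18 without liver TG2) and 0 to 1 for the difference. The sign turned for Aldh16a1 in esophagus (-0.01 with normexp and in the authors' table) and Adh7 in liver (0.00 with quantile normalization, -0.12 with normexp and in the authors' table); neither was called. Differences of dim members shrank in the authors' table: in CTR mice Akr1d1 was at -3.50 and Aldh18a1 at 1.37. In TG mice Akr1b7, Akr1c21 and Aldh5a1 were called with the 75th percentile and not with quantile normalization, and Akr1a1 was not called with normexp. The cause was not tested. With the animal as a replicate block 34 members were called between the organs in TG and 33 in CTR mice, and with the animal or the replicate number as a block 0 in each TG comparison. Same-numbered TG and CTR arrays, which share only a number, had deviations correlated at -0.40 to 0.15. Quantile values within an organ give no organ comparison.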

Other observations

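Liver arrays TG2 and CTR1, 1 of each genotype, were the 2 lowest of the 6 livers for 16 of 35 tested members, against 12.1% of all 21203 genes. The 16 included Adh1, Aldh1a1, Aldh3a2, Akr1c6, Akr1c12, Akr1c14, Akr1c19 and Akr1d1, and the pair was singled out after its values were seen. Aldh3a2, for example, stood at 4.91, 3.71 and 4.93 in TG and 3.52, 5.41 and 4.41 in CTR liver, and Adh1 at 7.97, 7.38 and 8.15 in TG and 7.05, 8.39 and 8.32 in CTR liver. The same 2 livers had the lowest summed signals of the clock genes, 5.17 and 5.43 on the log2 scale against 6.30 to 7.43 in the other livers. Genes of that list moved in opposite directions. Dbp was lowest in TG2 and CTR1, at 4.38 and 4.74 against 5.59 to 7.15. Arntl was highest there, at -0.14 and 0.15 against -3.49 to -1.55, as was Clock, at 1.77 and 1.65 against 0.58 to 0.94. In the opposite direction, liver CTR2 and CTR3 were the 2 highest for 9 of 35 members, against 8.11% of all genes, and liver TG3 and CTR2 for 8 of 35, against 12.7%.

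Single arrays also carried the extremes of the dim members. Akr1c18 stood at -4.73, -3.33 and -4.53 in TG and -1.26, -3.56 and -3.77 in CTR esophagus, against -4.88, -5.19 and -3.42 in TG and -4.95, -4.21 and -0.53 in CTR liver, where liver CTR3 and esophagus CTR1 lay above the other arrays. Aldh3a1 was well above background in TG3 alone among the 6 livers, at -4.02, and TG3 had the highest share of probes well above background, 81.8%. Esophagus CTR1 was the highest of the 6 esophagi for 9 of 36 members, against 15.9% of 23194 genes.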
